A study of Mus musculus with 4 samples.

Results

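Stem-like spermatogonia were examined as 530 barcodes that carried GDNF-response and stem cell transcripts, out of 1699 germ cell barcodes and 17567 deep barcodes (8000 or more unique molecular identifiers, UMIs, each standing for 1 captured transcript) in 2 single-cell libraries of the postnatal day (P) 8 mouse testis. 296 members came from the control library and 234 from the *Cnot3*-cKO library. A barcode was a member when *Gfra1*, *Etv5*, *Lhx1*, *Id4* and *Ret* together had 4 or more UMIs, *Neurog3* had 0, *Kit* under 2 and *Meioc* under 3. Before this step, barcodes had to hold 8000 or more UMIs with at most 20% from mitochondrially encoded genes and 10 or more UMIs of *Ddx4* plus *Dazl* (both germ cell RNA-binding proteins). Collagen and decorin genes, and 5 Sertoli cell genes, each had to stay under 0.3% of UMIs. The cells were selected on these UMI counts, so the levels of these genes are given below as a description only.

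Spermatogonial stem cells are the founders of the spermatogenic lineage and keep themselves in the undifferentiated state through signals from the niche. GDNF, made by Sertoli cells and other somatic cells, binds the coreceptor GFRA1 and the receptor tyrosine kinase RET, and FGF2 signals in parallel. Downstream of both lie transcription factors such as ETV5, LHX1 and BCL6B and the helix-loop-helix inhibitor ID4. Progenitors switch on *Neurog3*, and retinoic acid then turns on *Kit* and *Stra8* as cells enter differentiation, while MEIOC belongs to the later preparation for meiosis.

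*Cnot3*-cKO mice were *Cnot3* flox/flox with a *Ddx4*-creER transgene, in which a tamoxifen-dependent Cre is driven in germ cells, and controls were *Cnot3* flox/flox littermates, called wild-type in the labels. Both received 4-hydroxytamoxifen (4-OHT) after birth: the study's methods give P1 to P3 for the mice, whereas the labels give P1 as the first day and a last day of P1 and P2 for the 2 control samples and P3 and P4 for the 2 *Cnot3*-cKO samples, so genotype and labelled treatment days cannot be told apart. Cells positive for CD9 and THY1 were sorted from testis suspensions. CNOT3 is a subunit of CCR4-NOT, the complex that shortens poly(A) tails, and the comparison asks what its loss does in these cells.

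The 2 samples of each genotype were merged in 1 matrix, so each genotype was 1 library. No difference between genotypes had a replicate check, and no test was made. The intervals below are 95% intervals for counting error only (exact Poisson for a level, exact conditional binomial for a ratio, Clopper-Pearson for a share). The matrices held 181550221 UMIs (control) and 168770743 UMIs (*Cnot3*-cKO). Members held 12356572 UMIs (median 41595 a cell, 6588.5 genes) in control and 11222571 UMIs (median 46871, 6996 genes) in *Cnot3*-cKO. Mitochondrially encoded genes took a median of 10.6% and 9.003% of a member's UMIs. Free RNA, judged from Sertoli cell markers, made up an estimated 7.95% and 7.62% of members' UMIs. The top 5 members held 32.1% (control) and 28.3% (*Cnot3*-cKO) of these marker UMIs, so the estimate is not an even level per member. The libraries shared 18 deep barcodes, and 0 control and 1 *Cnot3*-cKO members carried one of them.

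The rule set the sum of the 5 defining markers, and members differed in how many of the 5 they held. A control member had a median of 10 UMIs of the 5 genes (highest 54) and a *Cnot3*-cKO member 13.5 (highest 105). All 5 genes were detected in 64 control and 68 *Cnot3*-cKO members, 4 genes in 95 and 85, and a single gene in 2 and 5. *Gfra1* stood at 56.0 UMIs per 1000000 UMIs of the summed members (CPM) in the control and 69.9 CPM in the *Cnot3*-cKO library, and *Ret* at 95.3 and 81.6 CPM. *Etv5* had 45.6 and 46.9 CPM and *Lhx1* 26.6 and 26.2 CPM, so both transcription factors were close between the libraries. *Id4* was the marker that differed most, with 89.1 CPM among control members and 136.5 CPM among *Cnot3*-cKO members. With each cell thinned to 8000 UMIs, *Gfra1* had a UMI in 37.2% of the control and 41.0% of the *Cnot3*-cKO members (75.3% and 84.2% unthinned), against 0 of 912 and 1 of 1634 barcodes that carried Sertoli cell genes and no germ cell genes (Sertoli-like barcodes, with median depths of 13178 and 12688 UMIs). *Etv5*, which Sertoli cells also express, was seen in 33.8% and 28.6% of members against 9.43% and 6.85% of Sertoli-like barcodes.

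The limit of 4 UMIs fell within a continuous range. It left 35 control and 23 *Cnot3*-cKO members with exactly 4 UMIs just inside, and 35 and 9 otherwise passing barcodes with 3 UMIs just outside. Just inside and just outside, *Zbtb16* (the zinc finger factor PLZF, needed for stem cell maintenance) stood at 137 and 153 CPM in the control library and 88.5 and 93.4 CPM in the *Cnot3*-cKO library. *Stra8* stood at 94.8 and 67.9 CPM and at 90.6 and 236.3 CPM, in the same order.

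Stem-like cells made up 24.7% (22.3 to 27.3) of 1196 control germ barcodes and 46.5% (42.1 to 51.0) of 503 *Cnot3*-cKO germ barcodes. *Neurog3*-positive cells went the other way, with 225 (18.8%, 16.6 to 21.1) in control and 25 (4.97%, 3.24 to 7.25) in *Cnot3*-cKO. *Kit*-positive cells (2 or more *Kit* UMIs, *Meioc* under 3) made up 32.1% (29.5 to 34.8) and 26.6% (22.8 to 30.7), and *Meioc*-positive cells 9.62% and 10.1%. The remaining 14.7% and 11.7% met no stage rule. In absolute terms the larger share stood for fewer members in *Cnot3*-cKO, since 546 barcodes there passed the *Ddx4* and *Dazl* step against 1325 in control. The part of the sort and of the number of cells loaded in these shares was not tested.

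The stem-like share was higher in *Cnot3*-cKO at each depth. Among barcodes of 8000 to 20000 UMIs it was 16.25% in control and 37.8% in *Cnot3*-cKO, and among those of 40000 to 60000 UMIs it was 25.2% and 49.6%. *Neurog3* was the main reason for leaving out a marker-positive cell in control: of 437 control germ barcodes with 4 or more marker UMIs, 108 carried *Neurog3*, 36 *Kit* and 8 *Meioc*. Of 298 such *Cnot3*-cKO barcodes, 20 carried *Neurog3*, 40 *Kit* and 8 *Meioc*.

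**Figure D1:**
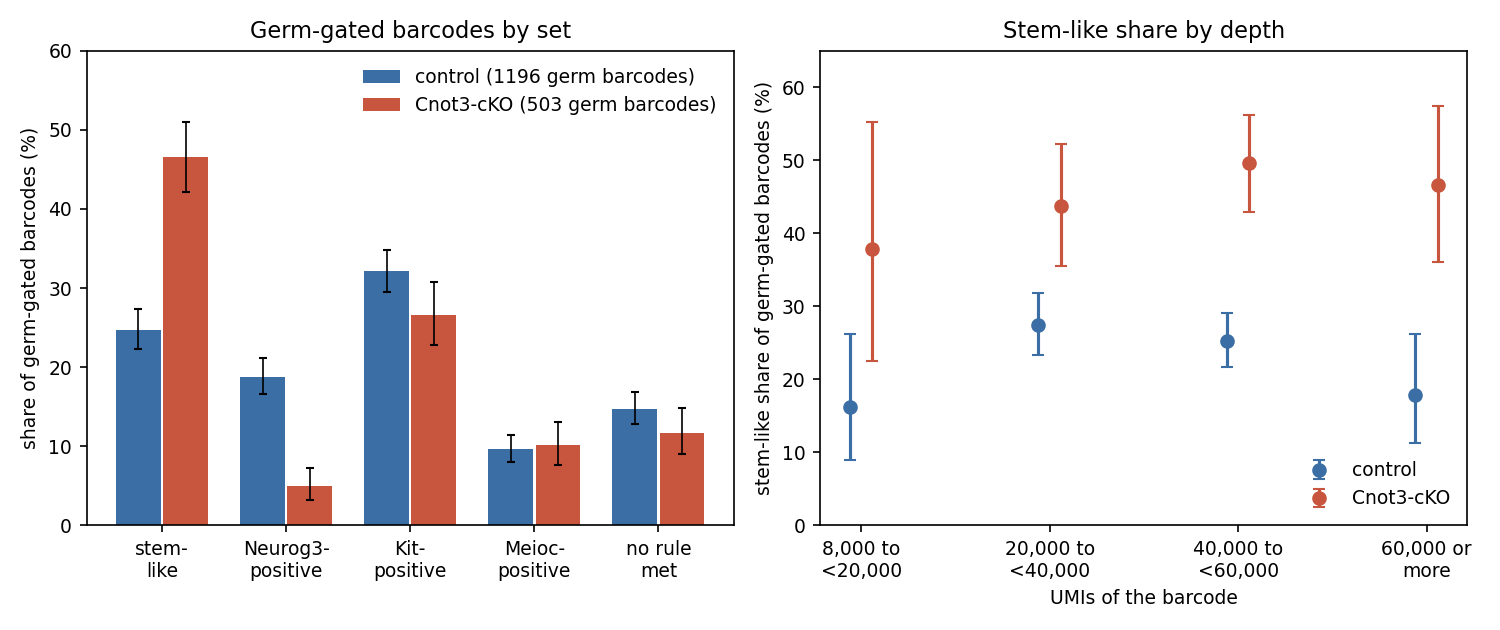
Left, bars give each set's share of germ barcodes (%, from 0) in control (1196 barcodes) and *Cnot3*-cKO (503 barcodes); right, points give the stem-like share (%) in 4 bins of UMIs per barcode. Lines are 95% Clopper-Pearson intervals for counting error. The stem-like bar is higher in *Cnot3*-cKO (46.5% against 24.7%), the *Neurog3*-positive bar lower (4.97% against 18.8%), and the stem-like share is higher in *Cnot3*-cKO in each bin.

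Genes outside the rule placed the members among undifferentiated spermatogonia. *Zbtb16* stood at 138 and 97.4 CPM in members (control and *Cnot3*-cKO), at 49.4 and 43.6 CPM in *Kit*-positive cells and at 183 and 168 CPM in *Neurog3*-positive cells. *Nanos2*, an RNA-binding protein of the stem cell state, had 8.42 and 5.44 CPM in members, 4.71 and 5.54 CPM in *Neurog3*-positive and 0.171 and 0.448 CPM in *Kit*-positive cells. *Foxc2*, a forkhead factor of quiescent stem cells, had 42.4 and 45.3 CPM in members and 2.16 and 8.36 CPM in *Kit*-positive cells. *Upp1*, *Sohlh1* and *Nanos3* were higher in *Neurog3*-positive cells than in members, with *Upp1* at 137 and 139 CPM there against 49.5 and 55.0 CPM. *Stra8* stood at 65.1 and 48.3 CPM in members against 395 and 233 CPM in *Kit*-positive cells. *Sycp3*, which encodes a synaptonemal complex protein, stood at 168 and 202 CPM in members, at 211 and 209 CPM in *Neurog3*-positive and at 272 and 256 CPM in *Kit*-positive cells.

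**Figure D2:**
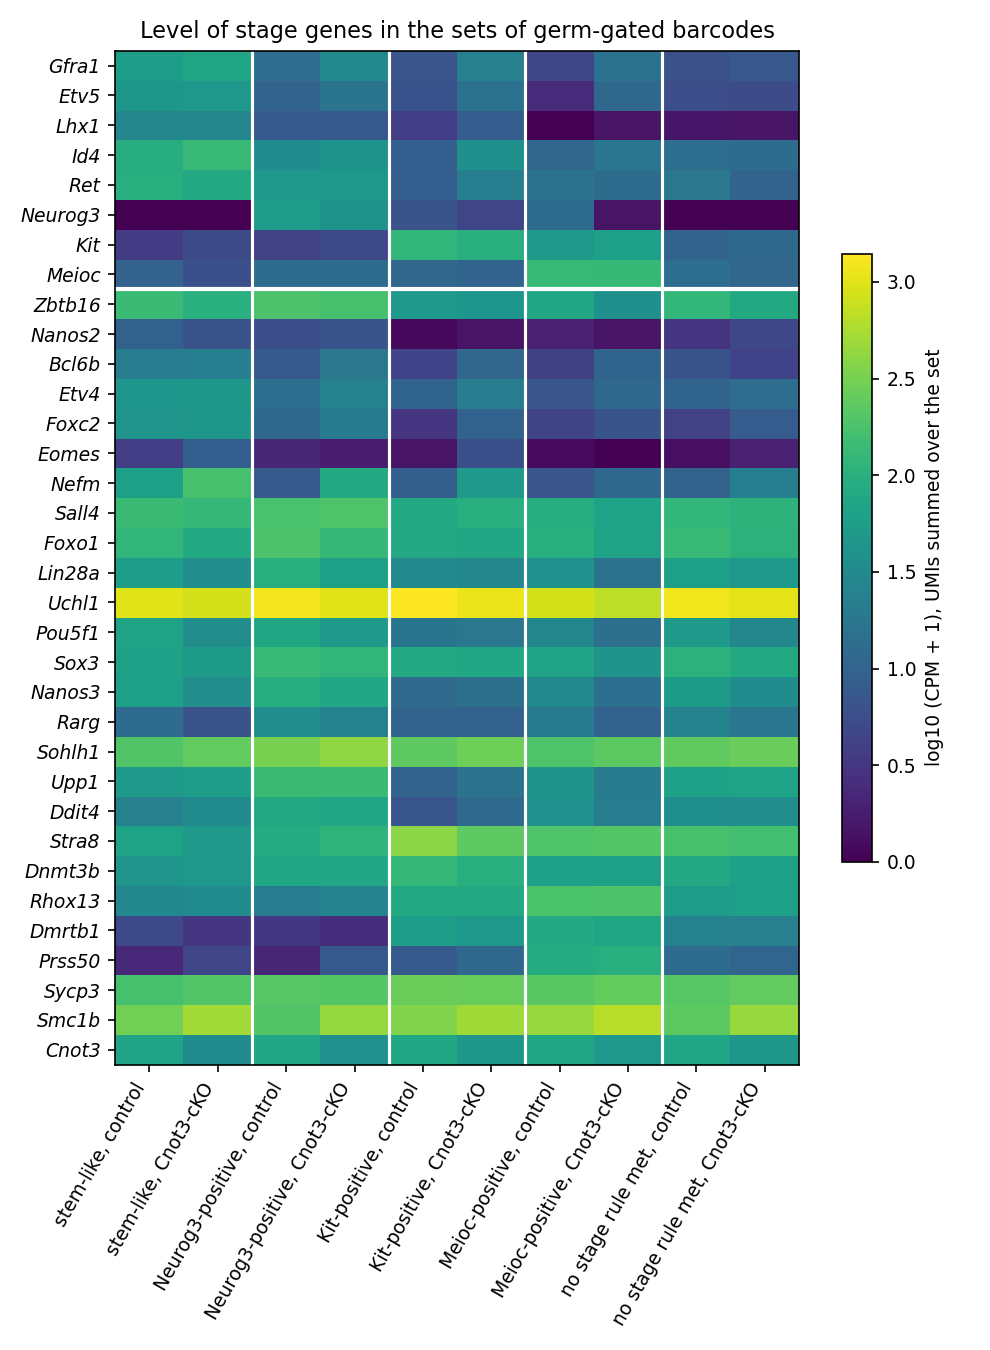
Each row is a gene and each column a set of germ barcodes in 1 library; colour gives log10(CPM + 1) of the summed UMIs. The 8 genes above the white line were used to define the sets. In both libraries *Zbtb16*, *Bcl6b*, *Etv4*, *Foxc2* and *Nanos2* are higher in stem-like than in *Kit*-positive cells, and *Stra8*, *Dnmt3b*, *Rhox13* and *Dmrtb1* are lower.

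Members and *Kit*-positive cells differed in many genes in each library. In control, 766 of 10812 genes with 100 or more UMIs were more than 2-fold higher in members (7.08%) and 677 more than 2-fold lower (6.26%). In *Cnot3*-cKO, 327 of 9895 genes were higher (3.30%) and 303 lower (3.06%). Of 9825 genes measured in both libraries, 270 were higher in both, 237 were lower in both and 1 passed 2-fold in opposite directions. Of the *Kit*-positive cells, 35 of 384 in control and 38 of 134 in *Cnot3*-cKO carried 4 or more marker UMIs. Leaving them out, a choice made after seeing the data that widens the contrast by construction, gave 875 genes higher and 750 lower in control and 712 and 513 in *Cnot3*-cKO. The part of these cells in the smaller counts in *Cnot3*-cKO was not tested.

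Most GDNF and FGF response genes outside the rule were higher in members. Of 12 such genes with 100 or more UMIs in control, 9 were more than 2-fold higher than in *Kit*-positive cells and 0 lower, and in *Cnot3*-cKO 7 of 11 were higher and 0 lower. *Spry4* and *Dusp6*, feedback inhibitors of receptor tyrosine kinase and ERK signalling, stood at 11.7 and 44.3 CPM in control members and at 0.627 and 5.13 CPM in control *Kit*-positive cells. In *Cnot3*-cKO they stood at 14.4 and 58.2 CPM in members and 3.13 and 16.4 CPM in *Kit*-positive cells. *Etv4*, the close relative of *Etv5*, was higher in members by 2.22 (1.96 to 2.48) on the log2 scale in control and by 1.18 (0.90 to 1.46) in *Cnot3*-cKO. *Bcl6b*, a transcriptional repressor induced by GDNF, was higher by 2.62 (2.20 to 3.06) and 1.09 (0.69 to 1.51). In *Kit*-positive cells of control and *Cnot3*-cKO, *Etv4* stood at 9.40 and 19.9 CPM and *Bcl6b* at 3.25 and 9.85 CPM. *Pou3f1* and *Mycn* were not part of this pattern, with log2 ratios of -0.21 and 0.33 in control and -0.03 and -0.13 in *Cnot3*-cKO.

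Genes of the primitive stem state did the same. In control, 7 of 10 were more than 2-fold higher and 0 lower, and in *Cnot3*-cKO 5 of 10 were higher and 0 lower. *Tspan8*, a tetraspanin of stem-cell-rich fractions, stood at 21.9 CPM in both members' sums and at 2.34 and 6.42 CPM in *Kit*-positive cells. *Sdc4*, a cell surface heparan sulphate proteoglycan, stood at 588 and 516 CPM against 88.5 and 171 CPM. *Bmi1* was an exception, at 38.8 and 36.1 CPM in members and 49.6 and 37.6 CPM in *Kit*-positive cells. Of 10 differentiation genes outside the rule, 7 were more than 2-fold lower in members in each library. *Dmrtb1*, which controls the mitosis-to-meiosis switch, stood at 3.88 and 2.14 CPM in members and 55.7 and 46.6 CPM in *Kit*-positive cells, and *Dnmt3b*, a de novo DNA methyltransferase, at 42.9 and 47.0 CPM against 124 and 96.6 CPM.

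Ranked by the nearer counting limit of the 2 libraries, the 12 genes highest in members over *Kit*-positive cells were *Il1r2*, *Foxc2*, *Caly*, *Foxf1*, *Nmi*, *Tcl1*, *Nefm*, *Rhox5*, *Cbln2*, *Egr2*, *Gfpt2* and *Aff3*. *Tcl1*, a coactivator of AKT, stood at 55.5 and 43.4 CPM in members and 4.10 and 10.7 CPM in *Kit*-positive cells. *Foxf1* and *Aff3* were higher still in *Neurog3*-positive cells, *Foxf1* at 118 and 115 CPM there against 56.6 and 39.7 CPM in members. The 12 lowest were *Tbx1*, *Dmrtb1*, *Pcsk1n*, *Gal*, *Ly6k*, *Lmo1*, *Cited1*, *Stra8*, *Runx3*, *Tcea3*, *Gnai1* and *Tmem238*. *Tbx1*, a T-box factor, had 0.728 and 0.624 CPM in members and 30.1 and 24.8 CPM in *Kit*-positive cells, a log2 ratio of -5.37 (-6.51 to -4.43) and -5.31 (-6.65 to -4.24).

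Members differed among themselves in *Lhx1*, the LIM homeobox factor of the most stem-like state. 216 control and 156 *Cnot3*-cKO members had no *Lhx1* UMI, and 25 and 22 had 1. The 55 control and 56 *Cnot3*-cKO members with 2 or more held 92.4% and 92.5% of all *Lhx1* UMIs of the members. The split at 2 UMIs, and the minimum of 60 UMIs a gene used with it, were chosen after the values were seen. Cells rich in *Lhx1* and cells without it had like depths in control (median 39171 and 41574 UMIs) and *Cnot3*-cKO (44765 and 47341.5).

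*Lhx1*-rich members differed from *Lhx1*-negative ones in genes of which part was shared between the libraries. Of 9359 genes, 145 were more than 2-fold higher in *Lhx1*-rich than in *Lhx1*-negative members in control and 141 in *Cnot3*-cKO, with 86 higher in both, and 253 and 118 were lower, with 57 lower in both. The shared genes were 59.3% of the higher genes in control and 61.0% in *Cnot3*-cKO, and 22.5% and 48.3% of the lower genes. A single gene passed 2-fold in opposite directions. *Plvap*, a membrane protein reported on stem cells, stood at 59.3 against 5.28 CPM in the control members and 29.2 against 3.17 CPM in the *Cnot3*-cKO members, log2 ratios of 3.49 (3.004 to 4.001) and 3.21 (2.53 to 3.93). *Eomes*, a T-box factor of a stem cell subset, had log2 ratios of 3.65 and 3.24, from 23 and 65 UMIs in the *Lhx1*-rich members. *Egr2* (48.2 against 9.88 CPM in control), *Bcl6b* (55.5 against 8.87 CPM, and 48.5 against 12.7 CPM) and *Fst*, the activin antagonist follistatin (181 against 41.4 CPM, and 178 against 57.6 CPM), were higher too. *Cyp2u1*, *Prrx2*, *Tox3*, *Lhx2*, *Tmem132e*, *B4gat1*, *Smkr-ps* and *Ramp2* complete the 12 highest. Among the rule genes, *Id4* was 1.53 and 1.68 higher on the log2 scale and *Gfra1* 1.15 and 1.11. Lists of stem cell genes were mixed. Of 9 primitive stem state genes outside the rule, 5 were above 0 in both libraries and 4 below 0 in both. Of 11 GDNF and FGF response genes, 9 were above 0 in both and 1, *Mycn* (-1.28 and -1.13), was below. Of 13 regulators of undifferentiated spermatogonia, 2 were above 0 in both and 7 below, with *Lin28a* at -1.06 and -1.25.

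All 5 progenitor genes outside the rule with 60 or more UMIs were lower in *Lhx1*-rich than in *Lhx1*-negative members in both libraries, with 2, *Sox3* and *Upp1*, past 2-fold in both. Of all 9359 genes, 57 were past 2-fold lower in both. The shares of all genes above or below 0 in both were not counted, so list counts by sign have no background. Of 12 piRNA pathway genes 11 were below 0 in both, and of 11 CCR4-NOT subunits 3. *Sox3*, a progenitor SOX factor, stood at 21.9 CPM in *Lhx1*-rich and 76.6 CPM in *Lhx1*-negative members of control, and at 15.8 and 63.1 CPM in *Cnot3*-cKO. *Upp1* had 18.1 against 60.8 CPM and 22.7 against 66.7 CPM in the same order. *Stra8* had 21.5 against 80.3 CPM and 19.2 against 57.7 CPM. *Rarg*, a retinoic acid receptor, had 1.72 against 14.9 CPM and 1.92 against 5.81 CPM, from 4 and 5 UMIs in *Lhx1*-rich members. Its log2 ratios had wide limits, -5.01 to -1.73 in control and -3.29 to -0.26 in *Cnot3*-cKO. With 44 UMIs in *Lhx1*-negative *Cnot3*-cKO members it was under the minimum of 60 UMIs there, so it is not among the 5. *Phlda2*, *Igfbp6*, *Asb9*, *Prr7*, *Ptcra*, *Igfbp2*, *Lmo1*, Gm16222 and Gm26785 were also among the 12 lowest. *Zbtb16* stood at 106 against 149 CPM in control (log2 ratio -0.49, -0.70 to -0.30) and 90.8 against 97.3 CPM in *Cnot3*-cKO (-0.10, -0.32 to 0.11), and *Cnot3* was alike in the subsets of each library (70.9 against 69.0 CPM, and 34.6 against 34.1 CPM). By the rule a member without *Neurog3* UMIs can still hold other progenitor transcripts, and no cell was called a stem cell or progenitor from 1 gene.

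**Figure D3:**
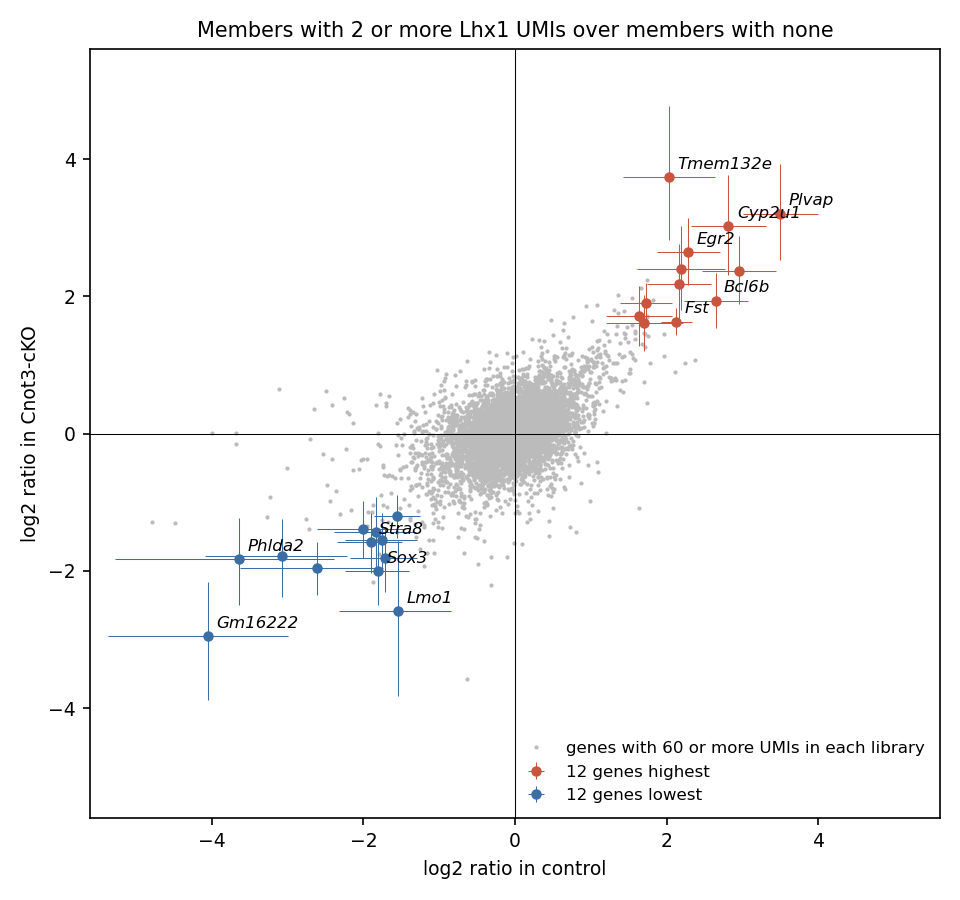
Each point is 1 gene with 60 or more UMIs in each library; the axes give the log2 CPM ratio of members with 2 or more *Lhx1* UMIs over members with none, in control (x) and *Cnot3*-cKO (y), and lines on the coloured points are 95% counting intervals. The 12 highest genes, *Plvap* among them at 3.49 and 3.21, lie at upper right, and the 12 lowest, *Sox3* and Gm16222 among them, at lower left.

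*Cnot3* itself was lower in *Cnot3*-cKO members. It had 843 UMIs (68.2 CPM, 63.7 to 73.0) in control and 366 UMIs (32.6 CPM, 29.4 to 36.1) in *Cnot3*-cKO (log2 ratio -1.06, -1.25 to -0.89). 31 of 296 control members had 0 *Cnot3* UMIs and 34 had 6 or more, against 72 and 6 of 234 *Cnot3*-cKO members. At 8000 UMIs a cell, 43.6% and 18.8% of members had a *Cnot3* UMI, and 36.8% and 39.6% of Sertoli-like barcodes, which the germ cell Cre should spare. The log2 ratio was -0.71 in *Kit*-positive cells and 0.10 in Sertoli-like barcodes. The position of the deleted exons is not given in the sources used here, and 3′ tags count transcript ends, so these counts do not say how many cells lost the gene. *Cnot3* is annotated on chromosome 7 from 3645268 to 3661109 on the plus strand (mm10).

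The other CCR4-NOT subunits lay on both sides of 0. The median log2 ratio of 11 subunits was -0.06 (all genes, 0.04), and *Cnot3* was the 1 past 1.5-fold. *Cnot7*, a deadenylase subunit, stood at 67.3 and 48.8 CPM and *Cnot6*, another catalytic subunit, at 51.0 and 40.8 CPM. *Cnot2*, the partner of CNOT3, stood at 78.1 and 97.2 CPM, *Cnot11* at 93.5 and 116 CPM, and the scaffold *Cnot1* at 104 CPM in both. Other deadenylation and decay genes had a median of -0.15 over 16 genes with none past 1.5-fold: *Pabpc1*, the poly(A)-binding protein, stood at 753 and 616 CPM and *Tnrc6a*, a silencing adaptor that recruits CCR4-NOT, at 176 and 137 CPM.

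Across the transcriptome, 817 of 10378 genes with 100 or more UMIs were more than 1.5-fold higher in *Cnot3*-cKO members (7.87%) and 420 more than 1.5-fold lower (4.05%). Of the 10378 genes 5657 lay above 0, and the median log2 ratio of all these genes was 0.04. The counts of listed genes below are to be read against these counts and shares. Each list is described by its median log2 ratio (*Cnot3*-cKO over control) over genes with 20 or more UMIs and by the number past 1.5-fold among genes with 100 or more.

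GDNF and FGF response genes differed little as a group between genotypes in members, unlike in *Kit*-positive cells, where their median log2 ratio was 1.08 over 11 genes. In members the median over 13 genes was 0.04, and of 12 with 100 or more UMIs 2 were past 1.5-fold higher and 1 lower. *Etv4* stood at 43.7 and 44.9 CPM, *Bcl6b* at 19.9 and 21.03 CPM and *Spry4* at 11.7 and 14.4 CPM (control first here and below). The exceptions were *Nefm*, a neurofilament gene, at 59.3 and 172 CPM, *Cxcr4*, a chemokine receptor, at 7.45 and 14.5 CPM, and *Nanos2*, at 8.42 and 5.44 CPM. *Cxcr4* was inside 1.5-fold at a mitochondrial limit of 10% (log2 ratio 0.57). *Nefm* was spread over cells: 45 of 296 control and 96 of 234 *Cnot3*-cKO members had 6 or more UMIs, and at 8000 UMIs a cell 82 of 296 and 117 of 234 members had 1 or more, against 0 of 912 and 2 of 1634 Sertoli-like barcodes. *Nefm* was also higher in *Cnot3*-cKO *Kit*-positive cells (7.92 and 49.1 CPM).

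Of the GDNF and FGF receptor genes with 100 or more UMIs, *Fgfr1* differed most. It had 275 UMIs in 167 control members (22.3 CPM) and 87 UMIs in 63 *Cnot3*-cKO members (7.75 CPM, log2 ratio -1.52, -1.89 to -1.17), and was also lower in *Kit*-positive cells (-1.22) and in Sertoli-like barcodes (-1.12). The median of the 8 measured GDNF and FGF receptor genes was -0.25. This list holds the rule genes *Gfra1* and *Ret*, on which members were selected, so its median is a description only. *Gfra4*, another coreceptor, had 10.4 and 14.0 CPM and *Ncam1*, an alternative GDNF receptor, 12.8 and 10.5 CPM. Receptors of other niche signals had the lowest median of the lists, at -0.54 over 15 genes, with 13 of the 15 below 0, 5 of 12 past 1.5-fold lower and 1, *Cxcr4*, higher. *Igf1r*, the IGF1 receptor, stood at 125 and 77.8 CPM, *Acvr2b*, an activin receptor, at 66.1 and 36.9 CPM, *Acvr2a* at 7.69 and 4.81 CPM, *Lgr4*, an R-spondin receptor, at 5.503 and 3.65 CPM, and *Rarg* at 11.5 and 5.35 CPM. *Acvr2a* (log2 ratio -0.26) and *Rarg* (-0.40) were inside 1.5-fold at a mitochondrial limit of 10%, and *Acvr2b* (-0.58), *Igf1r* (-0.50) and *Lgr4* (-0.25) with an upper bound on UMIs. *Lgr4* lay close to the limit and was inside it under many other settings, among them members thinned (-0.55) and 6 marker UMIs (-0.55). *Acvr2a* was inside it with members thinned too (-0.11). *Rarg* was on the other side of 0 among *Lhx1*-rich members alone, where it had 4 and 5 UMIs. *Rara*, another retinoic acid receptor, had 20.6 and 16.1 CPM.

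Primitive stem state genes had a median of -0.10 over 13 genes, with 1 of 11 past 1.5-fold higher and 3 lower. The same list had a median of 1.10 over 10 genes in *Kit*-positive cells. *Eomes* stood at 2.75 CPM in 24 control members and 7.84 CPM in 43 *Cnot3*-cKO members. *Plvap* stood at 16.1 and 9.71 CPM and *Tspan33* at 16.7 and 9.98 CPM, while *Foxc2* (42.4 and 45.3 CPM), *Utf1* (18.3 and 17.8 CPM) and *Tspan8* (21.9 and 21.9 CPM) were close. The call ended for *Plvap* (log2 ratio -0.24) and *Nanos2* (-0.15) with an upper bound on UMIs and for *Tspan33* (-0.05) at a mitochondrial limit of 10%. Regulators of undifferentiated spermatogonia had a median of -0.18 over 13 genes, with 10 below 0, 3 past 1.5-fold lower and 0 higher. *Sall1* (19.99 and 10.2 CPM), *Pou5f1*, the pluripotency factor OCT4 (66.3 and 35.4 CPM), and *Lin28a*, an RNA-binding repressor of let-7 (57.5 and 34.3 CPM), were the 3. *Zbtb16* stood at 138 and 97.4 CPM (log2 ratio -0.51, -0.62 to -0.40) and *Foxo1*, a forkhead factor needed for stem cell maintenance, at 118 and 83.7 CPM. *Dnd1*, an RNA-binding partner of CCR4-NOT in germ cells, and *Taf4b*, a TFIID subunit, lay above 0, at 122 and 165 CPM and at 48.6 and 65.8 CPM. *Pou5f1* was inside 1.5-fold among *Lhx1*-rich members alone (-0.34) and *Sall1* with members thinned (-0.52).

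Progenitor genes outside the rule had a median of -0.08 over 6 genes, with *Rarg* and *Nanos3* (59.0 and 34.6 CPM) past 1.5-fold lower and *Ddit4*, a stress-induced inhibitor of mTORC1, at 22.4 and 32.2 CPM. Differentiation genes had a median of 0.04 over 10, and of the 7 with 100 or more UMIs none passed 1.5-fold. The 3 Id genes outside the rule, inhibitors of helix-loop-helix factors, lay above 0 (median 0.48), with *Id3* at 12.6 and 17.6 CPM. With the rule gene *Id4* the median of the list was 0.55. Surface markers had a median of -0.04 over 8 genes: *Epcam*, an adhesion molecule, stood at 147 and 234 CPM, *Cd24a*, a mucin-like surface protein, at 22.5 and 12.9 CPM, and the sort marker *Cd9* at 197 and 171 CPM. *Thy1*, the other sort marker, had 22 and 28 UMIs in all, and was seen in 2.03% and 2.56% of members at 8000 UMIs. *Epcam* was inside 1.5-fold with members thinned (log2 ratio 0.42), at a mitochondrial limit of 10% (0.44) and with an upper bound on UMIs (0.39). *Cd24a* was inside it among *Lhx1*-negative members alone (-0.54).

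**Figure D4:**
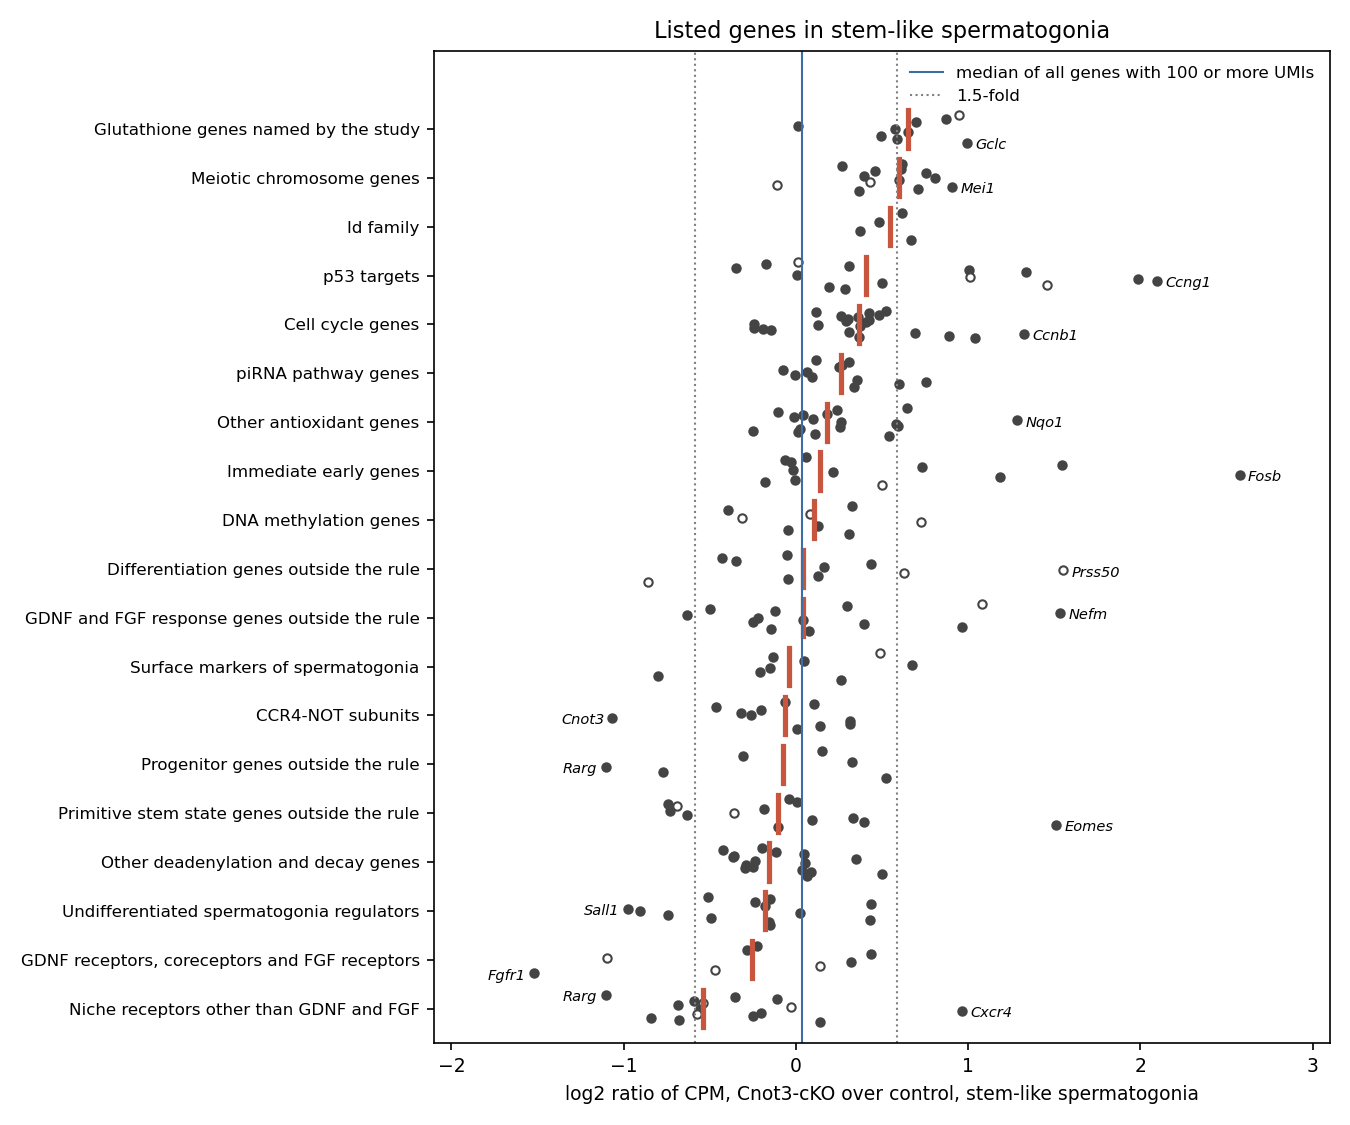
Each point is a listed gene, placed by its log2 CPM ratio of *Cnot3*-cKO over control members (filled, 100 or more UMIs; open, 20 to 99). Red bars are list medians, the blue line the median of all genes (0.04) and dotted lines 1.5-fold. Glutathione genes (0.65) and meiotic chromosome genes (0.60) have the highest medians and niche receptors (-0.54) the lowest.

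Meiotic chromosome genes were higher in *Cnot3*-cKO members as a group. The median over 13 genes was 0.60, 12 lay above 0, and 7 of 11 were past 1.5-fold higher and 0 lower. *Smc1b*, a meiotic cohesin, stood at 295 and 516 CPM, *Stag3*, another cohesin subunit, at 72.8 and 123 CPM, and *Hormad1*, an axis protein, at 52.7 and 86.1 CPM. Among *Lhx1*-rich members alone *Hormad1* (0.26), *Smc1b* (0.50), *Sycp2* (0.15), *Mei1* (0.31) and *Tex101* (0.56) were inside 1.5-fold. *Rec8* was inside it under several settings, among them the rule applied at 8000 UMIs a cell (0.53), 6 marker UMIs (0.53) and *Lhx1*-negative members alone (0.47). *Sycp1* and *Sycp3*, which encode synaptonemal complex proteins, stood at 320 and 440 CPM and at 168 and 202 CPM, and *Prdm9*, at 1.54 and 1.43 CPM, was the 1 member below 0. Control *Kit*-positive cells had *Smc1b* at 355 CPM and *Stag3* at 77.5 CPM. The same list had a median of 0.37 in *Kit*-positive cells and of -0.32, over 8 genes, in Sertoli-like barcodes. piRNA pathway genes, which silence transposons in germ cells, had a median of 0.26 over 12 genes, 10 above 0, with *Henmt1* (29.8 and 50.3 CPM) and *Ddx25* (58.2 and 88.0 CPM) past 1.5-fold higher. *Ddx25* was inside it under several settings, among them the rule applied at 8000 UMIs a cell (0.33) and 3 marker UMIs (0.51). *Henmt1* was inside it among *Lhx1*-rich members alone (0.57). DNA methylation genes had a median of 0.11 over 8, with none past 1.5-fold.

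Glutathione genes had the highest list median, 0.65 over 9 genes, all above 0, with 5 of 8 past 1.5-fold higher and 0 lower. The study reported most, but not all, of the glutathione pathway transcripts it tested as higher in sorted ID4-EGFP+ spermatogonia of *Cnot3*-cKO mice that also carried *Id4-eGfp*. The list, with *Xdh* added from the study's mRNA stability assay, was taken up here with that direction known. *Gclc*, the catalytic subunit of the rate-limiting enzyme of glutathione synthesis, stood at 105 and 210 CPM (log2 ratio 0.99, 0.90 to 1.09) and was detected in 280 of 296 and 231 of 234 members. *Mt1*, a metallothionein, stood at 1000 and 1826 CPM, *Gsta4*, a glutathione transferase, at 98.5 and 148 CPM, and *Mgst1* at 10.8 and 17.5 CPM. *Gsta4* lay close to the limit and was inside 1.5-fold under several settings. Among these were a mitochondrial limit of 10% (log2 ratio 0.54), members thinned (0.55), an upper bound on UMIs (0.43) and *Lhx1*-rich members alone (0.41). *Mgst1* was inside it with an upper bound on UMIs (0.49). *Gstm1*, *Gstm2*, *Gstm6* and *Gstm7* are neighbouring genes of the same family on chromosome 3. Whether reads matched several of them, and how such reads were counted, was not examined. *Gstm2* stood at 36.8 and 57.7 CPM, a direction that turned with an upper bound on UMIs, and *Gstm7* at 8.74 and 8.82 CPM. *Gstm2* was also inside 1.5-fold with members thinned (0.55), with 3 marker UMIs (0.54) and with the rule applied at 8000 UMIs a cell (0.37). The list median was 0.44 in *Kit*-positive cells and -0.11 in Sertoli-like barcodes.

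Antioxidant genes outside that list had a median of 0.18 over 17, with 14 above 0 and 3 past 1.5-fold higher. *Nqo1*, a quinone reductase, stood at 2.67 and 6.50 CPM, *Hmox1*, haem oxygenase, at 102 and 153 CPM, and *Txnrd1*, thioredoxin reductase, at 87.0 and 136 CPM. *Hmox1* was inside 1.5-fold under several settings, among them a mitochondrial limit of 10% (log2 ratio 0.40) and 6 marker UMIs (0.58). *Txnrd1* was inside it with an upper bound on UMIs (0.48) and among *Lhx1*-rich members alone (0.47). *Gclm*, the partner subunit of *Gclc*, stood at 213 and 230 CPM and the peroxidase *Gpx4* at 367 and 309 CPM.

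Of 11 p53 target genes with 100 or more UMIs, 4 were past 1.5-fold higher and 0 lower, and the median over 14 genes was 0.41. *Cdkn1a*, the cell cycle inhibitor p21, had 103 UMIs in 58 of 296 control members and 371 UMIs in 125 of 234 *Cnot3*-cKO members (8.34 and 33.1 CPM, log2 ratio 1.99, 1.67 to 2.32). *Ccng1*, a cyclin induced by p53, had 308 UMIs in 142 and 1198 UMIs in 206 members (24.9 and 107 CPM, log2 ratio 2.10, 1.92 to 2.28). *Phlda3*, an AKT inhibitor, stood at 7.85 and 19.8 CPM and *Plk2* at 7.36 and 14.8 CPM, although among *Lhx1*-rich members alone *Phlda3* had a log2 ratio of 0.06 and *Plk2* lay below 0. *Bbc3*, the apoptosis gene PUMA, had 20 and 50 UMIs, and *Bax*, *Mdm2* and *Pmaip1* stood at 261 and 299, 83.1 and 83.4, and 23.5 and 18.4 CPM. *Cdkn1a* had a log2 ratio of 2.54 in *Kit*-positive cells and *Ccng1* 1.003, against -2.75 and 0.01 in Sertoli-like barcodes. The list median was larger in *Kit*-positive cells than in members, at 0.66 over 15 genes, and was -0.001 in Sertoli-like barcodes.

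Immediate early genes, which respond within minutes to growth factors and also to tissue dissociation, had a median of 0.14 over 12, and 4 of 11 were past 1.5-fold higher. These were *Fosb* (1.54 and 9.18 CPM, 14 and 49 members), *Junb* (8.34 and 24.3 CPM), *Fos* (14.2 and 32.3 CPM) and *Jun* (26.7 and 44.4 CPM). *Egr1*, at 112 CPM in both, and *Jund*, at 443 and 434 CPM, were alike. The list median was larger in *Kit*-positive cells, at 0.85 over 11 genes, and was 0.10 in Sertoli-like barcodes. Sertoli-like barcodes held *Fosb* at 134 and 249 CPM (log2 ratio 0.89), and their ratios were 0.44 for *Junb*, 0.68 for *Fos* and -0.28 for *Jun*. At 8000 UMIs a cell, *Fosb* had a UMI in 1.01% and 4.70% of members against 39.4% and 59.5% of Sertoli-like barcodes. The share in Sertoli-like barcodes is not a measure of the free RNA in members. *Fos* turned direction when the free RNA profile was subtracted. *Fosb* and *Junb* had a ratio in 21 settings, against 22 for *Fos* and *Jun*, and a setting without a ratio could not show a turn. *Jun* was inside 1.5-fold with members thinned (log2 ratio 0.43) and with the rule applied at 8000 UMIs a cell (0.48). Ribosomal protein genes took 20.7% and 19.4% of members' UMIs (median log2 ratio -0.07 over 80 genes), and the 13 mitochondrially encoded genes had a median of -0.18.

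G2 and M phase genes set the libraries apart cell by cell. With each member thinned to 8000 UMIs, 10 genes of these phases together had a median of 9 UMIs in control (interquartile range 5 to 16) and 16 in *Cnot3*-cKO (10 to 24). 34 of 296 control members (11.5%) had 2 or fewer UMIs of them, against 1 of 234 *Cnot3*-cKO members (0.427%). *Kit*-positive cells had medians of 13 and 16, with 1 of 384 and 1 of 134 at 2 or fewer. *Neurog3*-positive cells had medians of 7 and 12, with 29 of 225 (12.9%) and 1 of 25 at 2 or fewer. The 6 S phase genes had medians of 6 and 8 UMIs in members and of 7 and 8 in *Kit*-positive cells. Sertoli-like barcodes had medians of 0 UMIs of the G2 and M genes in both libraries. Phase was not called in any cell.

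The separate list of 22 cell cycle genes, which is not the sets counted cell by cell above, was not uniform. *Ccnb1*, the mitotic cyclin B1, stood at 164 and 411 CPM, *Ccna2* at 135 and 249 CPM, *Ccnb2* at 101 and 163 CPM and *Aurka*, a mitotic kinase, at 25.1 and 51.7 CPM. *Cdk1* (74.8 and 81.8 CPM) and *Plk1* (27.0 and 29.3 CPM) were closer, and *Mki67*, the proliferation antigen, stood at 98.2 and 137 CPM. 4 of the 22 cell cycle genes were past 1.5-fold higher and 0 lower, with a median of 0.36. The median was 0.45 among *Lhx1*-negative members and 0.11 among *Lhx1*-rich ones. The difference of these medians was not tested. *Ccnd2* (378 and 343 CPM) and *Ccnd3* (78.3 and 68.4 CPM), D-type cyclins of undifferentiated spermatogonia, lay below 0. Among *Lhx1*-rich members alone *Ccna2* (log2 ratio 0.53) and *Ccnb2* (0.55) were inside 1.5-fold, and *Ccnb2* also with an upper bound on UMIs (0.49).

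**Figure D5:**
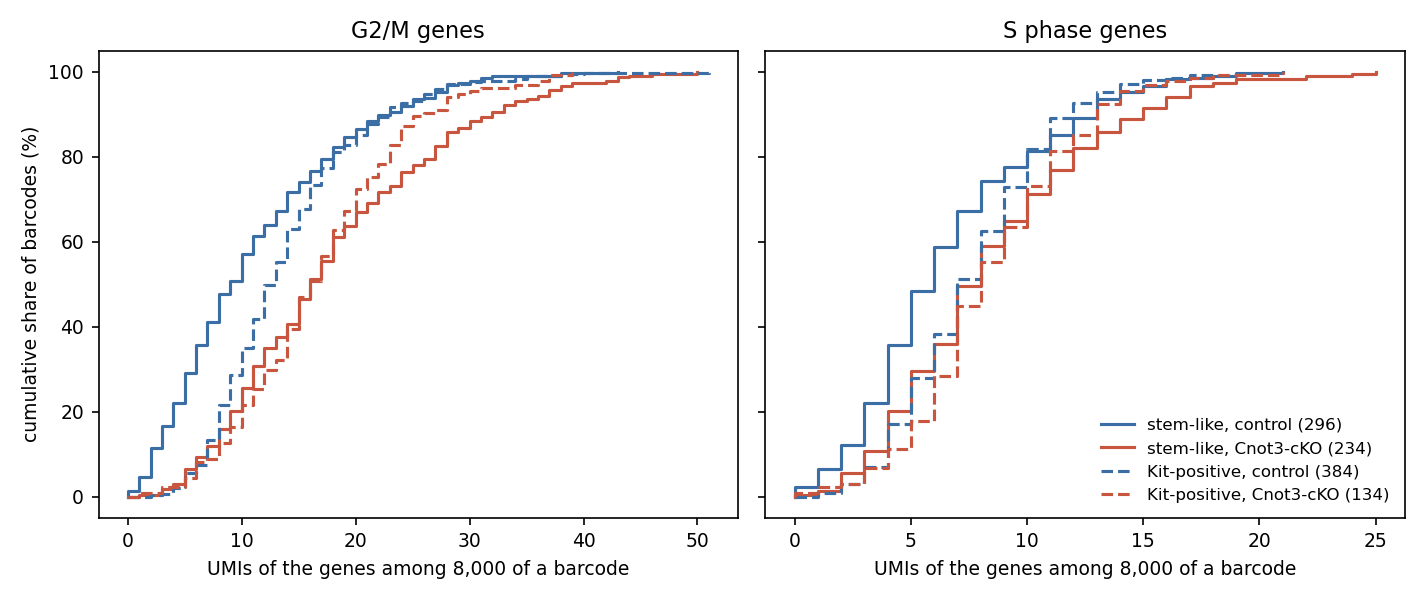
Lines give the cumulative share of cells (%) against the UMIs of the 10 G2 and M genes (left) and the 6 S phase genes (right) among 8000 UMIs of a cell; solid lines are members and dashed lines *Kit*-positive cells. The solid control line starts left of the others at the G2 and M genes, with 11.5% of control members at 2 or fewer UMIs against 0.427% of *Cnot3*-cKO members.

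Among all genes with 100 or more UMIs, those with the largest differences by counting limit were a mixture of genes found in many cells and genes carried by a few. *Esr1*, oestrogen receptor alpha, had 27 UMIs in 23 control members and 209 UMIs in 136 *Cnot3*-cKO members, at most 5 in a cell (log2 ratio 3.09, 2.51 to 3.73). The ratio was 3.87 in *Kit*-positive cells and 0.48 in Sertoli-like barcodes. The creER transgene, which only *Cnot3*-cKO mice carried, encodes part of an oestrogen receptor, and its reads were not told apart from those of *Esr1*. *Krt18*, a keratin, had 64 UMIs in 52 and 266 UMIs in 111 members, *Gsc*, a homeobox gene, 16 UMIs in 16 and 89 UMIs in 46 members, and *Cdc20*, an activator of the anaphase-promoting complex, 133 and 403 CPM in 266 and 232 members.

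Lower in *Cnot3*-cKO and spread over cells were *Ube2r2*, a ubiquitin-conjugating enzyme (140 and 62.3 CPM, in 286 and 194 members), *Clasrp* (65.1 and 27.5 CPM, in 270 and 147), *Ccnjl* (22.4 and 8.20 CPM, above 0 among *Lhx1*-rich members alone), *Oasl2* (19.3 and 6.68 CPM), Mir670hg (20.4 and 7.13 CPM), *Chrna4*, a nicotinic receptor subunit (14.5 and 4.54 CPM), Lbhd2 (15.9 and 3.74 CPM, but a log2 ratio of -0.16 among *Lhx1*-rich members alone), 2010005H15Rik (8.74 and 2.41 CPM) and *Hoxb4* (6.88 and 2.05 CPM). *Clasrp* was also lower in *Kit*-positive cells (-1.18) and in Sertoli-like barcodes (-1.05), where the germ cell Cre should not act, while *Ube2r2* stood at -0.85 and 0.00 there.

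In the other genes of this ranking a few barcodes held much of the count. *Apoe* had 589 UMIs in control, 474 of them in 1 member that also held 201 of the 240 macrophage marker UMIs of the control members. Without that member *Apoe* was higher in *Cnot3*-cKO, with a log2 ratio of 0.64 in place of -1.71. Gm26730 had 103 UMIs in 4 control members, 94 of them in 1. Gm31763 had 147 UMIs in 14 *Cnot3*-cKO members, 75 in 1, and 1 UMI in control, so that its log2 ratio of 7.34 has limits of 4.84 and 12.65. *S100a3* had 112 of its 155 *Cnot3*-cKO UMIs in 1 member, *Mirt1* 52 of 148 and *Ppm1k* 53 of 209. *S100a3* and *Mirt1* lay below 0 among *Lhx1*-rich members alone, and *Olfr655* was detected in 46 and 48 members with up to 44 and 66 UMIs in a cell.

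Markers of other cell types were low in members and not even between libraries. The 9 Sertoli cell markers summed to 119 and 184 CPM in members (log2 ratio 0.63, 9 of 9 above 0), against 6273 and 6418 CPM in Sertoli-like barcodes, and their ratio in near-empty barcodes was 0.69. The 6 stromal markers summed to 53.7 and 57.6 CPM, the 5 peritubular myoid markers to 9.79 and 17.6 CPM, the 5 endothelial markers to 5.75 and 8.82 CPM and the 6 macrophage markers to 19.4 and 6.24 CPM, the control value resting on the 1 member above. Of 5 Leydig cell markers 4 and 3 were at 0, and the 4 erythroid markers summed to 0.162 and 1.87 CPM and the 3 T cell markers to 1.54 and 2.58 CPM. The part of these transcripts in the differences between genotypes was not tested.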

How the data were processed

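Cell suspensions of P8 testes, sorted for CD9 and THY1, were made into 10x Genomics 3′ v3.1 libraries. Per the labels and methods, the authors ran Cell Ranger 3.0.1 (mm10, Ensembl build 93) and deposited 1 matrix of raw UMI counts per genotype (30828 genes, 6794880 barcodes), with the 2 samples of each genotype merged. Of these, 8335 (control) and 9232 (*Cnot3*-cKO) barcodes had 8000 or more UMIs, which is more than the cells the study analysed, and they stand for the whole series here.

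Members and gene lists were chosen with earlier results of these data known. Counts were read with scipy 1.17.1 and numpy 2.4.6 in Python 3.11.15, summed over members and scaled to UMIs per 1000000 UMIs (CPM). A gene counted as different past 1.5-fold between genotypes (2-fold against *Kit*-positive cells) with 100 or more UMIs over both sets. Sertoli-like barcodes had 1% or more of UMIs from 5 Sertoli cell genes and 0 *Ddx4* or *Dazl* UMIs. Free RNA came from barcodes of 1 to 100 UMIs. Named genes were those of 19 lists (227 different genes) plus the 12 with the highest and the 12 with the lowest counting limits, between genotypes and against *Kit*-positive cells; the *Lhx1* split, the genes named from it and genes outside that rule were chosen after values were seen. Cells were neither clustered nor searched for doublets; 117 control and 177 *Cnot3*-cKO members lay above the mean plus 2 SD of UMIs of their library's deep barcodes. With 1 library a genotype no test was made, and PCR and capture error are outside the intervals. The interval code was tested on simulated data. Positions are those of GENCODE M21 (mm10), matched by gene ID for 99.8% of genes, and genes whose symbol is a clone name are given by their GENCODE names. Alternatives were run, 20 planned and 6 added after seeing the data.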

Additional observations from a re-analysis of the deposited data

Results flagged for a closer look

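For 6 named genes with 100 or more UMIs in both sets, the counting intervals of the genotype ratio lay on opposite sides of 0 in stem-like and in *Kit*-positive cells, and the ratios differed by more than 1.5-fold. The number of named genes compared in this way, and the share of all genes that do the same, are not given here, so the 6 have no background. These differences between the sets were not tested. *Sdc4* stood at -0.187 (log2, *Cnot3*-cKO against control) in members and 0.95 in *Kit*-positive cells, *Ccnd2* -0.142 and 0.524, *Cd9* -0.207 and 0.608, *Pmaip1* -0.348 and 1.327, *Zfp36l1* -0.424 and 0.245, and *S100a3* 2.093 and -1.385. The first 5 were higher in members than in *Kit*-positive cells in both libraries (*Sdc4* at 588 and 88.5 CPM in control, 516 and 171 CPM in *Cnot3*-cKO). 38 of 134 *Kit*-positive cells carried 4 or more UMIs of the stem cell markers in *Cnot3*-cKO, against 35 of 384 in control, and the part of those cells in the ratios was not tested. *S100a3* rested on 1 *Cnot3*-cKO member with 112 of its 155 UMIs.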

How the results depend on the processing

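No paired analysis was possible because the 2 samples of each genotype are merged in 1 matrix, and for the same reason leaving out each sample was not run. 26 settings were compared with the values reported, 6 of them chosen after seeing the data, and the cause of a change was not tested except where the setting itself makes it.

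The stem-like share was higher in *Cnot3*-cKO under all 12 settings tried. In control it was 27.68% with 3 marker UMIs, 20.07% with 6, 29.68% with the rule applied at 8000 UMIs a cell, 20.32% without *Id4* and 18.48% without *Ret* in the sum. In *Cnot3*-cKO it was 38.77% with 6 marker UMIs, 41.91% with an upper bound on UMIs, 39.56% without *Id4* and 40.36% without *Ret*. *Cnot3* stayed below 0 in all 22 settings tried, with log2 ratios of -0.8673 at a mitochondrial limit of 10%, -1.475 with the upper bound and -1.363 with members thinned.

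Counts past 1.5-fold moved with the UMIs a gene needed. Higher and lower genes numbered 3477 and 1656 with no filter and 328 and 225 with members thinned, higher genes 1260 at 50 UMIs and 518 at 200, and lower genes 666 with free RNA subtracted. Among *Lhx1*-rich members alone, which are fewer cells, they numbered 403 and 173. Against *Kit*-positive cells, higher and lower genes numbered 274 and 302 in control and 107 and 97 in *Cnot3*-cKO with cells thinned, and 2348 and 1953, and 1496 and 1426, with no filter. In *Cnot3*-cKO they numbered 519 and 458 at 50 UMIs, 196 and 180 at 200 UMIs, 161 and 125 with the upper bound, and 712 and 513 without marker-rich *Kit*-positive cells.

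Of 69 named genes past 1.5-fold, 41 were inside it or reversed under at least 1 setting and 28 under no setting that gave a ratio. Among the 28, Gm31763 had a ratio in 17 settings and *Esr1*, *Fosb* and *Junb* in 21, against 22 for most genes. The call ended for 28 genes among *Lhx1*-rich members, 14 with the upper bound, 10 at the mitochondrial limit of 10%, 10 with members thinned and 8 with the rule at 8000 UMIs, and 9 genes changed direction. *Apoe* had a log2 ratio of 0.6 without the richest barcode, 0.6368 without the macrophage-rich member, 0.4734 with the upper bound and 0.5761 in *Lhx1*-rich members. In *Lhx1*-rich members *Ccnjl* stood at 0.9266, *Mirt1* at -0.8978, *Plk2* at -0.5328, *Rarg* at 0.1611 and *S100a3* at -2.968. *Gstm2* stood at -0.1948 with the upper bound, Gm26730 at 0.032 with the rule at 8000 UMIs and *Fos* at -5.959 with free RNA subtracted, which left it near 0 in *Cnot3*-cKO. The medians of the glutathione (0.46 to 1.01), meiotic (0.36 to 0.75), cell cycle (0.11 to 0.45), p53 (0.11 to 0.56) and niche receptor lists (-0.61 to -0.32) kept their sign in all 24 settings tried. The medians of 10 other lists, all small, changed sign under some setting, among them the GDNF and FGF response genes (-0.21 to 0.27), the primitive state genes (-0.24 to 0.17) and the CCR4-NOT subunits (-0.13 to 0.07).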
